A study of Homo sapiens with 12 samples.

Results

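Messenger RNAs of the vesicle trafficking machinery and of its small GTPases were examined for contacts with dSpCas9, the nuclease-dead Cas9 of Streptococcus pyogenes, expressed without a guide RNA. Members were the peaks in 4 lists that overlapped, on the same strand, an exon (GENCODE version 44, build hg38, also called GRCh38) of a protein-coding gene whose symbol belongs to one of 12 families: RAB, ARF, ARFGAP, VPS, SNX, COP, SEC, STX, VAMP, AP, TBC1D and EXOC. Of 18128 peaks in the series, 351 met this rule. They lay on 73 of the 258 genes with such a symbol. Where peaks of the 4 lists that overlap or touch are joined, they made 190 separate bound places.

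The study used eCLIP, in which UV light cross-links a protein to the RNA it touches and antibodies then recover the protein with that RNA for sequencing. HEK 293T cells (the Lenti-X 293T line, a human embryonic kidney line that takes up plasmids readily) carried V5-dSpCas9, 3xFLAG-dSpCas9 or an empty vector. For each antibody there were 2 IP libraries, 2 size-matched input libraries from the same dSpCas9 cells and 2 IP libraries from empty vector cells, giving 12 libraries in 6 groups. All cells received 400 mJ/cm2 of UV in 2 exposures, and all membranes were cut from 115 kDa upward. The dSpCas9 came from a transfected plasmid and the empty vector was pCDNA3.1(-). The lists hold no expression values, so the identity of the cells could not be checked against marker genes.

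Each list compared the IP with one control and gave 1 value per peak over both replicates: IP reads divided by control reads, on a log2 scale, called enrichment here. The controls were the size-matched input, which measures RNA present at that size, and the empty vector IP, which measures RNA the antibody recovers without dSpCas9. The V5 list over input and the V5 list over the empty vector share their IP libraries, as do both FLAG lists, so only V5 against FLAG compares separate IP libraries. No peak had an enrichment below a log2 of 3.00. Neither replicate values nor read depth came with the lists, so no difference between peaks could be set against replicate error, and no test over samples was possible. The level of each mRNA in these cells was not measured here, so an mRNA without a peak may be unbound or merely scarce.

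Cells move proteins and lipids between compartments in vesicles. Coat proteins shape the bud: COPII, with its SEC subunits, leaves the endoplasmic reticulum, COPI (the COP genes) returns from the Golgi, and clathrin with AP adaptors serves the Golgi, endosomes and plasma membrane. ARF GTPases recruit coats and RAB GTPases mark each compartment, while ARFGAP and TBC1D proteins switch GTPases off. VPS, SNX and EXOC proteins sort, tether or recycle cargo, and the syntaxins (STX) and VAMP proteins are SNAREs that drive membrane fusion.

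Bound sequences in the intersection of the 4 lists are shown first, because these 10 intervals in 8 genes were recovered with both antibodies over both controls. The intersection held 749 intervals in all, was rebuilt here from the deposited lists, and is not the study's own list of reproducible peaks. It is larger than that list, and the step that differs is not known. For 7 of these genes, each line gives 30 bases of the reference genome hg38 in the direction of the RNA, 5′ to 3′. The study modelled Cas9 contact sites as a GU loop upstream of a stem of 5 bases, named the GU-loop:5nt-stem, after the guide RNA. Here the stem was required to follow the GU directly. In AP1B1 and RAB10, capitals mark the GU (GT in DNA letters) and the 5 bases that met this model. In the others, capitals mark every GU, and their intervals held no match to the model.
AP1B1, 3′UTR, chr22:29328690-29328719, minus strand: caggccactcaGTGGGCTccctggtcctga
RAB10, 3′UTR, chr2:26136604-26136633, plus strand: atgatacctttGTTGAAAgaattgtgaata
VPS26B, 3′UTR, chr11:134245953-134245982, plus strand: agcatGTccctgggattctgagctgccaac
RAB24, 5′UTR, chr5:177303672-177303701, minus strand: ggaGTcgcggcgctgcggGTaggagccggg
COPG2, coding exon 2, chr7:130667498-130667527, minus strand: ctccaatcctttccagcatctggagaagag
TBC1D10B, coding exon 2, chr16:30365506-30365535, minus strand: tcaGTaactgggataaGTggctGTcacggc
VPS33A, coding exon 1, chr12:122266338-122266367, minus strand: GTtgcgcgaggcgGTgcGTcgcgagctgcg

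The 8 genes came from 6 of the 12 families, with no ARFGAP, SNX, SEC, STX, VAMP or EXOC gene among them. AP1B1 is a large subunit of the AP-1 clathrin adaptor, ARF3 a GTPase of the Golgi, COPG2 a gamma subunit of COPI, and VPS26B a subunit of the retromer, which returns receptors from endosomes. RAB10 serves exocytosis and recycling, RAB24 has been tied to autophagy, TBC1D10B is a GTPase-activating protein for RABs, and VPS33A belongs to the complexes that tether late endosomes and lysosomes. Of their 10 intervals, 6 lay in a 3′UTR, 3 in a coding sequence and 1 in a 5′UTR. GC content ran from 38.8% in RAB10 to 76.0% in RAB24, and the other intervals lay between 47.4% (TBC1D10B) and 66.7% (ARF3). The model was met in 2 of the 10 intervals (20%, 95% Wilson interval 5.67 to 51.0) and in 269 of the other 732 intervals on protein-coding exons (36.7%, 33.3 to 40.3), and these intervals overlap. In all, 22 of the 351 peaks, in 8 genes, also lay on exons of another protein-coding gene on the same strand and were kept. All Wilson intervals here cover counting error only, and peaks of the same mRNA are not independent.

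More of the trafficking genes held a peak than protein-coding genes at large. In any list, 28.3% of the 258 genes did (23.1 to 34.1), against 18.1% of 20028 protein-coding genes. Over input, V5 peaks lay on 51 genes (19.8%, 15.4 to 25.1), against a background of 13.6%, and FLAG peaks on 59 genes (22.9%, 18.2 to 28.4), against 13.2%. Both intervals lie above the background. Over the empty vector the lists were shorter, with V5 peaks on 23 genes (8.91%, 6.01 to 13.0) against 6.79%, a background inside the interval, and FLAG peaks on 25 genes (9.69%, 6.65 to 13.9) against 4.97%, which lies below the interval. Trafficking mRNAs with a peak had a median length of 3758 nt and those without one 3265 nt. Over all protein-coding genes the medians were 3751.5 nt and 2704 nt, so the trafficking genes without a peak were longer than other genes without one. The part of mRNA length and level in these shares was not tested.

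Agreement between lists narrowed the set. Peaks over input with both tags were found on 40 genes (15.5% of 258, against 9.27%). Peaks over the empty vector with both tags lay on 13 genes (5.04%, against 2.88%), and peaks in all 4 lists on 13 genes (5.04%, against 2.79%). These counts take peaks anywhere in the mRNA. Of the 40 genes, 31 had at least 1 place bound over input with both tags, and the rest had V5 and FLAG peaks at different places only. An interval in the intersection was found on 8 genes (3.10%, against 2.07%). Among genes with any peak that share was 10.96% here and 11.4% in the background, and among genes bound over input with both tags it was 8 of 40 (20%) here and 22.3% in the background. Once bound, trafficking mRNAs thus reached the intersection about as often as other mRNAs. Single-list genes were the largest class: 27 of the 73 genes had a peak in 1 list only, 20 in 2, 13 in 3 and 13 in 4. The same split over all protein-coding genes is not given here, so this need not be particular to trafficking genes. Of those in 1 list, 14 were in the FLAG list over input, 10 in the V5 list over input and 3 in the V5 list over the empty vector.

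**Figure D1:**
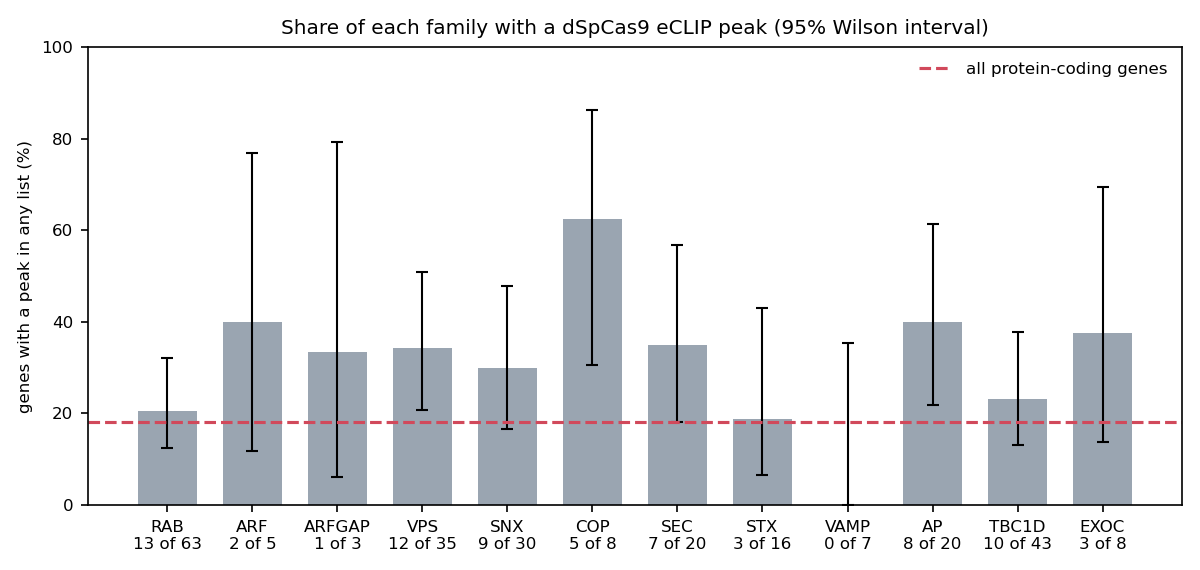
Percent of the genes of each family with a peak in any of the 4 lists (vertical axis), with the gene counts under each bar. Error bars are 95% Wilson intervals and the dashed line is the 18.1% of all protein-coding genes. The intervals of VPS, COP, SEC and AP lie above the line, and VAMP has no gene with a peak.

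The families differed in how many of their mRNAs were bound, though most were too small for the shares to be told apart. The plot of shares by family shows that the intervals of VPS (12 of 35 genes, 34.3%, 20.8 to 50.8), COP (5 of 8, 62.5%, 30.6 to 86.3), SEC (7 of 20, 35.0%, 18.1 to 56.7) and AP (8 of 20, 40%, 21.9 to 61.3) stood above or just at the background of 18.1%. The lower end for SEC, 18.119%, exceeded the background, 18.095%, only in the second decimal. RAB, the most numerous family, was close to the background at 13 of 63 genes (20.6%, 12.5 to 32.2), and so were TBC1D at 10 of 43 (23.3%, 13.2 to 37.7) and STX at 3 of 16 (18.8%, 6.59 to 43.0). SNX had a peak on 9 of 30 genes (30%, 16.7 to 47.9), EXOC on 3 of 8 (37.5%, 13.7 to 69.4), ARF on 2 of 5 (40%, 11.8 to 76.9) and ARFGAP on 1 of 3 (33.3%, 6.15 to 79.2). None of the 7 VAMP genes had a peak, which still allows a share of up to 35.4%.

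How far a family was shared between lists also varied. All 8 bound AP genes had a peak over input with both tags, and 4 of them (AP1B1, AP2M1, AP3D1 and AP3S2) had one in all 4 lists. Of the 12 bound VPS genes, 8 were bound over input with both tags and 2 (VPS26B and VPS33A) in all 4 lists. Of the 13 bound RAB genes, 6 were bound over input with both tags and 3 (RAB10, RAB24 and RAB34) in all 4. For COP, FLAG peaks over input lay on 5 genes and V5 peaks on 2. No SEC, STX or ARFGAP gene had a V5 peak over the empty vector, and no ARFGAP, SEC, STX or EXOC gene was found in all 4 lists.

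**Figure D2:**
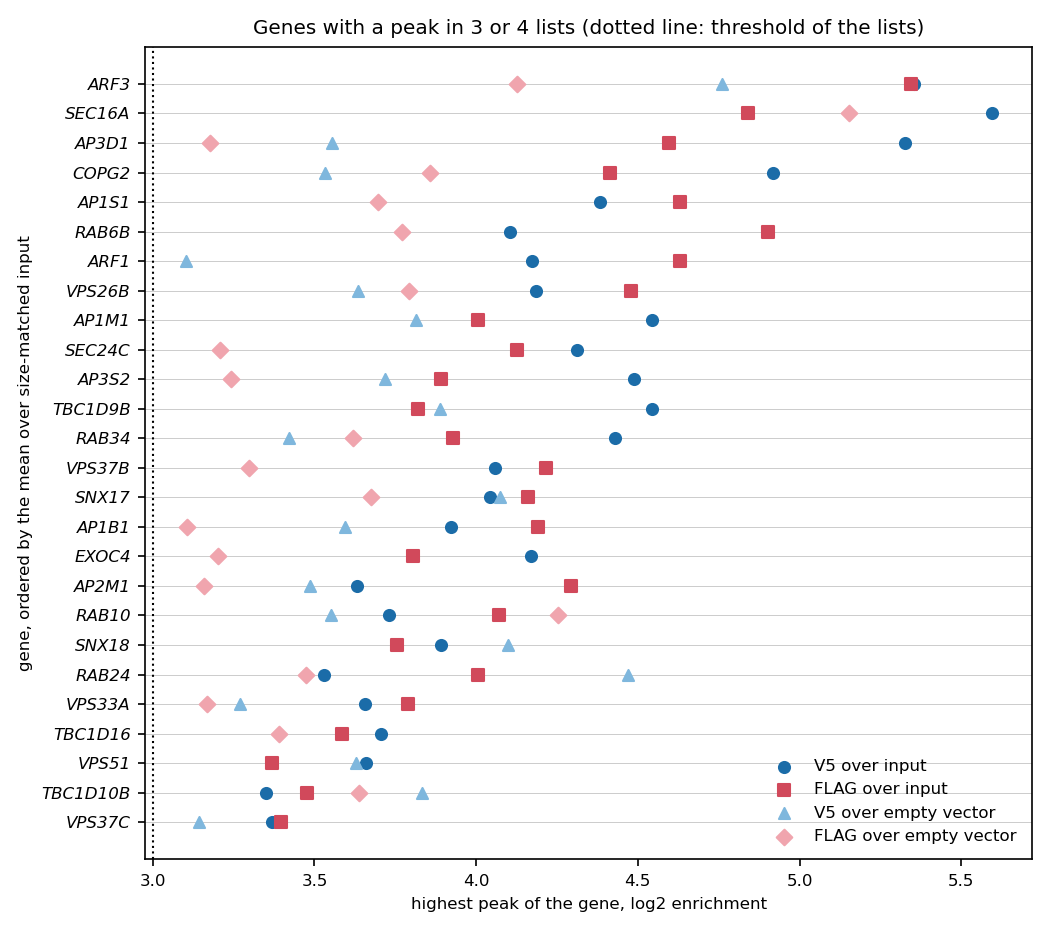
Highest log2 enrichment of each gene (horizontal axis) in each of the 4 lists for the genes with a peak in 3 or 4 lists, ordered by the mean over size-matched input. Each symbol is 1 list value over both replicates, without error. ARF3 leads at 5.36 and 5.34 over input, and the 4 values of VPS33A lie between 3.17 and 3.79.

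The ARF mRNAs with peaks, ARF1 and ARF3, differed in place and in the control over which peaks were found. They encode near-identical GTPases that recruit coats to the Golgi. ARF1 had 21 peaks in 6 places, 10 in each list over input, 1 over the empty vector with V5 and 0 with FLAG. Its highest values were 4.17 with V5 and 4.63 with FLAG over input and 3.10 with V5 over the empty vector. The 3′UTR of ARF1 held the 8 trafficking peaks whose −log10 p stood at the deposited ceiling of 400, 3 with V5 and 5 with FLAG, all over input. None of its 3′UTR peaks was found over the empty vector, where the single peak lay in the 5′UTR. The highest peak covered chr1:228098228-228098247 on the plus strand, 20 nt without a GU, shown here with 5 bases on either side because it is the strongest ARF1 contact and holds no GU.
ARF1, 3′UTR, chr1:228098223-228098252, plus strand: ctcctatgcaatattactcagcttttttta

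ARF3 ranked first of the 40 genes bound over input with both tags and 47th of all 1857 such genes, by the average of its highest V5 and highest FLAG value. Its highest values were 5.36 and 5.34 over input and 4.76 and 4.13 over the empty vector with V5 and FLAG. Of its 15 peaks, 13 lay in one stretch of its 3′UTR, which was found in all 4 lists. The 3 ARF3 intervals of the intersection lay in this stretch, and none of them met the model. The coding sequence of neither gene held a peak.

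RAB mRNAs were bound mainly in the 3′UTR and mostly at single places. RAB6B, a Golgi RAB expressed mainly in neurons, had the highest mean over input of the family, with 4.11 (V5) and 4.90 (FLAG), a FLAG value of 3.77 over the empty vector and no V5 peak there. All 7 of its peaks lay in its 3′UTR of 4553 nt. Its strongest peak met the model, and the site is shown for that reason with the GU and 5 stem bases in capitals.
RAB6B, 3′UTR, chr3:133827913-133827942, minus strand: tggggtgccatGTGTACTtctgaaaatatt

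RAB10 had 1 place, bound in all 4 lists with values of 3.73 and 4.07 over input and 3.55 and 4.25 over the empty vector. RAB10, SEC16A, TBC1D10B and TBC1D12 were the 4 genes whose highest FLAG value over the empty vector exceeded that over input, and RAB24, SNX17, SNX18 and TBC1D10B were the 4 genes of that kind with V5. In all 4 V5 cases, and in TBC1D12 with FLAG, the values over input and over the empty vector came from different places. RAB24 had 3.53 and 4.01 over input and 4.47 and 3.47 over the empty vector. Its place in all 4 lists was a stretch of 86 nt at the start of the 5′UTR, with 3.38 and 4.01 over input and 4.47 and 3.01 over the empty vector. The other 5 of its 9 peaks also lay on exons of MXD3, the neighbouring gene on the same strand, and cannot be assigned to either gene. The RAB24 maxima of 3.53 (V5 over input) and 3.47 (FLAG over the empty vector) came from these shared peaks. RAB34, which acts in cilium formation, reached 4.43 and 3.93 over input and 3.42 and 3.62 over the empty vector. Among the remaining RAB genes, RAB14 and RAB35 had peaks over input with both tags, at different places and with values from 3.17 to 3.93. The other 7 bound RAB genes lacked a peak over input with 1 or both tags.

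The AP adaptors held more peaks than any other family, 89 on 8 genes. AP3D1, the delta subunit of AP-3, which carries cargo to lysosome-related organelles, had 21 of them. Its highest values were 5.32 (V5) and 4.60 (FLAG) over input and 3.55 and 3.18 over the empty vector. In AP3D1, 17 of the 21 peaks lay in the 3′UTR, where 5 places lined up between 45 and 850 nt past the stop codon. The highest V5 and FLAG values over input came from the same 3′UTR place, which V5 also recovered over the empty vector at 3.03, while the highest V5 value over the empty vector came from coding exon 6. The strongest site met the model and is printed as the example with the highest enrichment in the family.
AP3D1, 3′UTR, chr19:2101635-2101664, minus strand: tgccaggcgttGTCCATTgtcagtgtgctc

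AP2M1, the cargo-binding subunit of the endocytic adaptor AP-2, showed the opposite layout. Of its 17 peaks, 16 lay in the coding sequence, in 7 of its 8 places. Its peaks covered 44.7% of the mRNA, the highest coverage among the 73 genes, whose median was 4.77% and lowest value 0.555%. The AP2M1 maxima were moderate, at 3.63 and 4.29 over input and 3.49 and 3.16 over the empty vector. ARF1 followed at 27.6%. AP2S1 and AP1S1, small subunits of AP-2 and AP-1 on short mRNAs, came next with 24.8% and 24.6%, and all 7 AP1S1 peaks lay in the 3′UTR. In AP3S2, 3 of the 9 peaks also lay on an exon of the readthrough gene ARPIN-AP3S2. AP1B1 reached 3.92 and 4.19 over input and 3.59 and 3.10 over the empty vector at its place in all 4 lists, centred 154 nt past the stop codon.

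**Figure D3:**
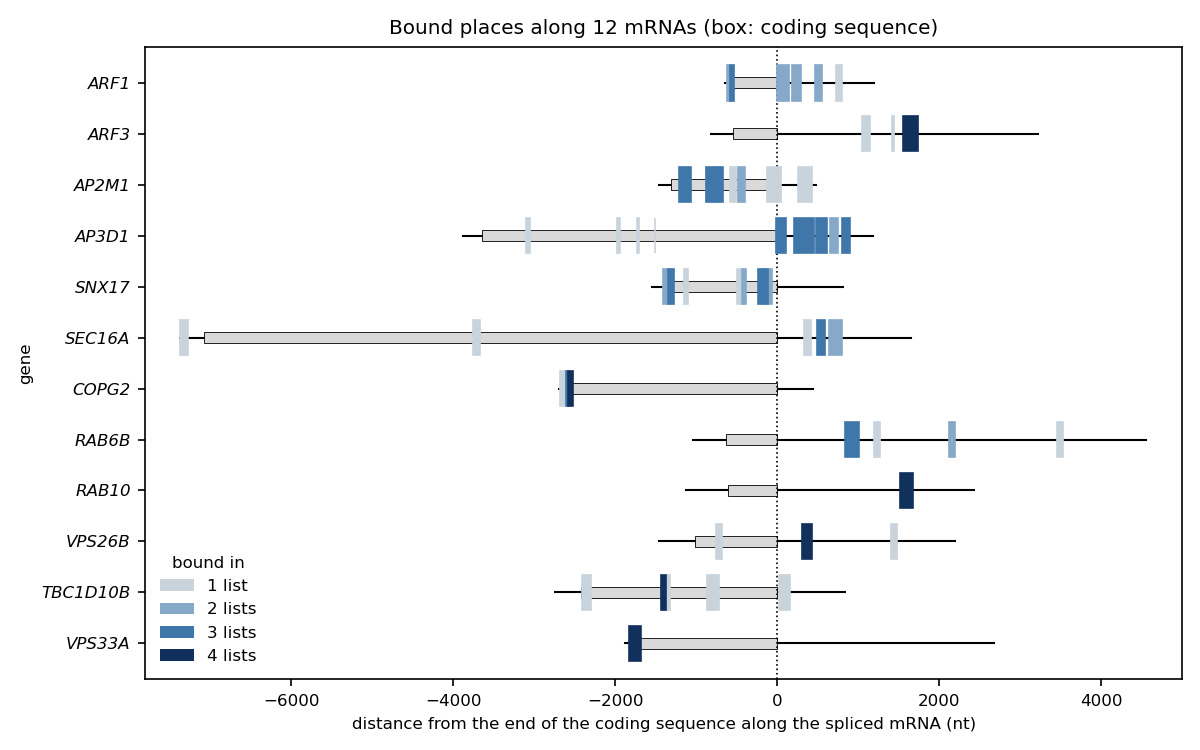
Bound places (coloured bars) of 12 trafficking mRNAs by distance in nt from the end of the coding sequence along the spliced reference transcript (horizontal axis). Grey boxes are coding sequences, black lines are UTRs, and darker bars were bound in more lists. ARF3 is bound only past the stop codon, and AP3D1 both there and in its coding sequence. SNX17 is bound only in its coding sequence, and COPG2 and VPS33A near the start of the mRNA.

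SNX17 had the most peaks of any trafficking gene, 22, and every one lay in the coding sequence. This sorting nexin binds receptors in endosomes and returns them to the cell surface. Its maxima over input were 4.04 with V5, on exon 11, and 4.16 with FLAG, on exon 2. Over the empty vector they were 4.07 with V5, on exon 13, and 3.67 with FLAG, on exon 15. Each of the 4 values thus came from a different place. Although all 4 lists held SNX17 peaks, none of its 8 places was found in all of them, and none entered the intersection. FLAG peaks over input fell on exons 1, 2, 11, 13, 14 and 15, while the V5 list over input had none on exons 13, 14 and 15. The 2 peaks of the V5 list over the empty vector lay on exons 13 and 14. Both of these V5 peaks had a −log10 p of 3.01, the lowest in the deposited lists. The strongest peak, at the start of exon 2, met the model with a pairing probability of at least 0.928 at each stem base and 0.0521 at the U, and it is shown because these lie far inside the limits of 0.5 and 0.7.
SNX17, coding exon 2, chr2:27371273-27371302, plus strand: ataacattcacGTGAATGgagtcctgcact

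The other sorting nexins were bound less often. SNX27, an endosomal sorting nexin that works with the retromer, had values of 4.77 (V5) and 3.72 (FLAG) over input at a place in its 5′UTR and no peak over the empty vector. A further FLAG peak of 17 nt lay on an exon outside the reference transcript. SNX18 reached 3.89 and 3.76 over input and 4.10 over the empty vector with V5. SNX11, SNX30 and SNX8 had peaks over input with both tags only, at different places in SNX11 and SNX30. SNX12 and SNX29 were bound with FLAG only, and SNX5 only with V5 over the empty vector.

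Of the COPII and COPI coat mRNAs bound over input with both tags, SEC16A and COPG2 had the highest average of the V5 and FLAG values. SEC16A, the scaffold that marks exit sites of the endoplasmic reticulum, reached 5.59 (V5) and 4.84 (FLAG) over input and 5.15 with FLAG over the empty vector. All of these came from 1 place of 103 nt centred 543 nt past the stop codon, and no SEC16A peak was found with V5 over the empty vector. The trafficking peak with the highest enrichment was thus outside the intersection because 1 list lacked it. Its sequence at the match to the model was as follows.
SEC16A, 3′UTR, chr9:136441213-136441242, minus strand: tggctgaatgaGTGGAGGgcgctgtgttct

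SEC24C, a cargo-selecting subunit of COPII, had 13 peaks, 10 of them in the coding sequence, with maxima of 4.31 and 4.13 over input and 3.21 over the empty vector with FLAG. SEC13, SEC22A, SEC22C and SEC23A had 1 or 2 peaks each. SEC61G, which matches by symbol but encodes a subunit of the protein channel of the endoplasmic reticulum and not a trafficking factor, had 1 V5 peak over input, with a log2 of 3.18 in the 5′UTR. The other genes of that kind (SEC11A, SEC11C, SEC61B, SEC62, SEC63 and VPS72) had none.

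COPI mRNAs were bound in coding sequence. Of the 10 bound places of COP genes, 9 lay there, 1 in a 5′UTR and 0 in a 3′UTR. COPG2 had values of 4.92 and 4.41 over input and 3.53 and 3.86 over the empty vector, all within the first 2 exons. Its 25 nt place at the end of exon 1 and its 5′UTR peak also lay on an exon of TSGA13 on the same strand, but the place on exon 2 did not. The exon 2 place had 4.92 and 4.23 over input and 3.53 and 3.54 over the empty vector, so both FLAG maxima of COPG2 came from the shared place. COPG1, which encodes the other gamma subunit, had its strongest FLAG value, 4.98, over input with no V5 peak. COPA had 4.13 and 3.25 over input, and COPB2 and COPZ1 were bound over input with FLAG only, at 3.30 and 3.13.

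VPS mRNAs divided almost evenly between coding sequence and 3′UTR. VPS26B reached 4.18 and 4.48 over input and 3.63 and 3.79 over the empty vector at 1 place of 128 nt in its 3′UTR. VPS33A had 1 place in exon 1, at 3.66 and 3.79 over input and 3.27 and 3.17 over the empty vector, and its 4 peaks also lay on an exon of a second protein-coding gene annotated there. VPS37B, a subunit of the ESCRT-I complex, had 9 peaks, all in the 3′UTR, with 4.06 and 4.22 over input. VPS51, a tether subunit, had 6 peaks, all in the coding sequence, with 3.66 and 3.37 over input and 3.63 with V5 over the empty vector. VPS13D, a lipid transfer protein with an mRNA of 16357 nt, had 5 peaks, all in the coding sequence.

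TBC1D, EXOC and STX mRNAs completed the set. TBC1D10B had 11 peaks and values of 3.35, 3.48, 3.83 and 3.64 in the order V5 and FLAG over input, V5 and FLAG over the empty vector, so both values over the empty vector were above those over input. The V5 values came from different places, on exon 7 over input and exon 3 over the empty vector. TBC1D9B led its family over input with 4.54 and 3.82 and had 3.89 with V5 over the empty vector. EXOC4, a subunit of the exocyst that tethers vesicles to the plasma membrane, had 4.17 and 3.81 over input and 3.20 with FLAG over the empty vector. STX10, a syntaxin of the trans-Golgi, was the only STX gene bound with both tags, at 3.27 and 3.15, the lowest mean of the 40 genes.

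Regions were next compared by list, taking each peak's midpoint on the reference transcript. Over input, trafficking peaks lay in a 3′UTR more often than other peaks on protein-coding exons. With V5, 51.6% did (63 of 122, 42.9 to 60.3), against 37.6% of other peaks, and 38.5% lay in coding sequence, against 52.1%. With FLAG, 47.4% lay in a 3′UTR (39.7 to 55.3), against 39.8%, and 44.2% in coding sequence, against 51.2%. The first of these 3′UTR intervals lies above the share of the other peaks, and the second includes it. Over the empty vector the 3′UTR shares were 35.9% (V5, 22.7 to 51.6) and 55.6% (FLAG, 39.6 to 70.5), against 27.6% and 46.6%, and both intervals include the other share. Peaks in 5′UTRs made up 9.84% and 7.79% over input with V5 and FLAG, against 9.30% and 7.99% of other peaks. Over the empty vector they made up 12.8% and 2.78%, against 9.27% and 3.60%.

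Over all trafficking peaks, the 3′UTR shares over input were close to those that region lengths alone would give. If V5 peaks over input were spread by length over the mRNAs that hold them, 48.1% would lie in 3′UTRs, inside the interval around 51.6%, and for FLAG the share by length was 47.6%. The other peaks over input lay below their share by length, at 38.0% against 45.8% with V5 and 40.2% against 45.8% with FLAG. Length shares thus differed little between trafficking and other peaks, and what sets their 3′UTR shares apart was not tested. Among trafficking peaks with a log2 of at least 4, 75.9% (57.9 to 87.8) with V5 and 68.4% (52.5 to 80.9) with FLAG lay in 3′UTRs. The shares by length were computed over the mRNAs of all peaks in each list, and none was computed for these stronger peaks alone. The part of region length in their shares was therefore not tested. For the 190 bound places, 83 lay in 3′UTRs, 91 in coding sequence, 15 in 5′UTRs and 1 off the reference transcript. By length, 47.4% of the mRNA was 3′UTR, 48.0% coding sequence and 4.64% 5′UTR. The observed shares of the 189 places on the reference transcripts were 43.9% (37.0 to 51.0), 48.1% (41.1 to 55.2) and 7.94% (4.87 to 12.7), so the 5′UTR interval alone lay above its share by length. This was not particular to trafficking mRNAs. Of other peaks over input, 9.40% with V5 and 8.07% with FLAG lay in 5′UTRs, against 5.07% and 5.04% by length. Over the empty vector the other peaks had 9.35% against 5.27% with V5, but 3.64% against 5.03% with FLAG. Places in 3′UTRs were centred a median of 689 nt past the stop codon, and the median position was 32.1% of the way along the 3′UTR.

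**Figure D4:**
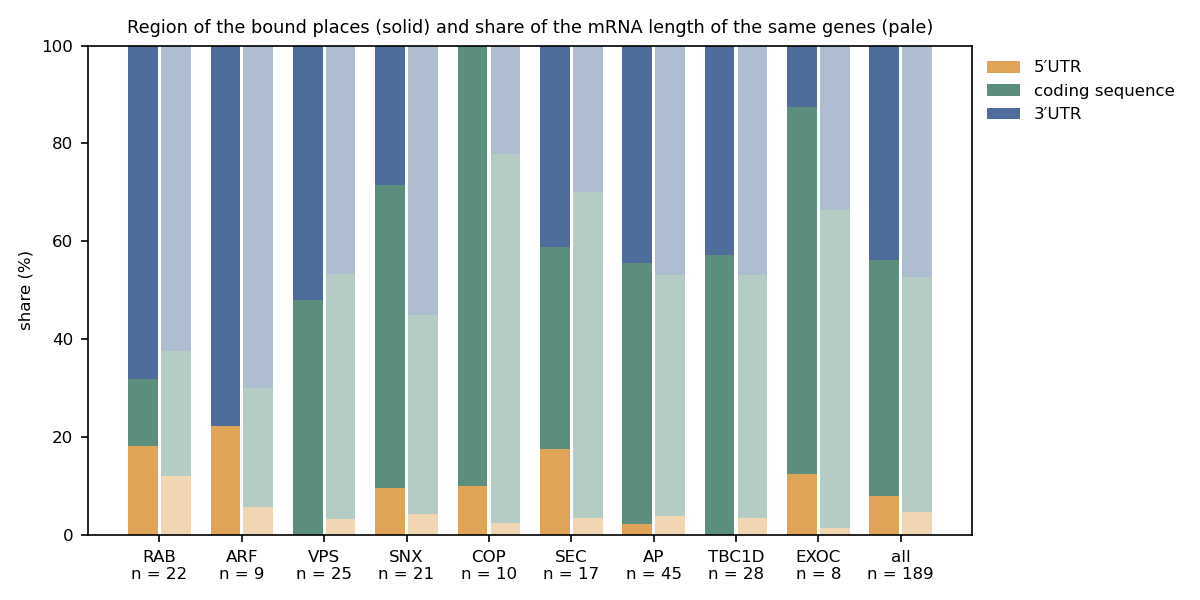
Percent of bound places in the 5′UTR, coding sequence and 3′UTR (solid bars) for 9 families and all families together, beside the percent of the mRNA length of the same genes (pale bars). ARFGAP and STX, with fewer than 5 places each, and VAMP, with none, are left out. SNX places fall in coding sequence more often than its share of length (61.9% and 40.7%), and SEC places less often (41.2% and 66.5%).

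By family, the plot of regions shows where place and length parted. For SNX, 13 of 21 places on reference transcripts lay in coding sequence (61.9%, 40.9 to 79.2), against 40.7% by length, which lies just under that interval, and the 6 places in 3′UTRs made 28.6% (13.8 to 50.0), against 55.1%. Of those 13 places, 8 belonged to SNX17. For COP, 90.0% lay in coding sequence (59.6 to 98.2), against 75.4% by length, inside the interval. For SEC, 41.2% lay in coding sequence (21.6 to 64.0), against 66.5%, and 17.6% in 5′UTRs (6.19 to 41.0), against 3.51%, both outside their intervals. These 3 places in 5′UTRs belong to SEC16A, SEC24C and SEC61G, and each was 1 peak in 1 list. SEC16A held 5 of the 17 SEC places, and only 1 of its 9 peaks lay in coding sequence. RAB places followed length, with 68.2% in 3′UTRs (47.3 to 83.6), against 62.4%, as did AP (44.4%, 30.9 to 58.8, against 46.9%), VPS (52.0%, 33.5 to 70.0, against 46.7%) and TBC1D (42.9%, 26.5 to 60.9, against 46.8%). No VPS or TBC1D place lay in a 5′UTR.

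Places often ended at an exon end and resumed at the next exon. Such pairs, within 3 nt of both exon ends, are 1 stretch in the spliced mRNA. There were 18 pairs in 13 of the 39 trafficking genes with at least 2 places (33.3%, 20.6 to 49.0), and 548 of the 1834 other genes with at least 2 places had one (29.9%), inside that interval. SNX17 had 4 such junctions, of exons 1 and 2, 10 and 11, 13 and 14, and 14 and 15. At COPG2 the 25 nt at the end of exon 1 and the 54 nt at the start of exon 2 were both bound in 3 lists, and at AP2M1 the junction of exons 6 and 7 was bound on both sides in 3 lists. ARF1 was bound on both sides of the junction of exons 1 and 2 inside its 5′UTR. The junction sequences are shown with 15 bases on either side and the downstream exon in capitals. Both sides adjoin in the spliced mRNA but not in the genome. The lists hold peaks and no reads, so binding across a junction was not tested.
COPG2, exons 1 and 2, minus strand, chr7:130668632-130668646 and chr7:130667520-130667534: aggacgaggagtctgGTAGTGGCTCCAATC
AP2M1, exons 6 and 7, plus strand, chr3:184180970-184180984 and chr3:184181085-184181099: tcatgtccccacaagGGCAGGTGCTGAGTG
ARF1, exons 1 and 2, plus strand, chr1:228082751-228082765 and chr1:228097078-228097092: gcagcagcctctgagGTGTCCCTGGCCAGT
SNX17, exons 1 and 2, plus strand, chr2:27370792-27370806 and chr2:27371269-27371283: ggctccgcctacgtgGCCTATAACATTCAC
SNX17, exons 13 and 14, plus strand, chr2:27376373-27376387 and chr2:27376479-27376493: tccccaccactgcttGAGTCACCTGATGCC
TBC1D10A, exons 7 and 8, minus strand, chr22:30293921-30293935 and chr22:30293791-30293805: tgttcttctgtgaagGGGTCAAGATCATCT
TBC1D10B, exons 7 and 8, minus strand, chr16:30359172-30359186 and chr16:30358803-30358817: tgtttttctgtgaagGCGTTAAGATCATCT

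The last pair comes from paralogs that were bound at the same junction, of exons 7 and 8 in each. These 30 bases are identical at 27 positions. TBC1D10A was bound there with FLAG over input, and both of those peaks also lay on exons of another annotated protein-coding gene, while TBC1D10B was bound upstream with V5 over input and downstream with V5 over the empty vector, so no list held both sides in TBC1D10B. How the authors assigned reads that fit both genes is not given in the sources used here, so the 2 genes cannot be told apart there with certainty.

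Enrichment of the trafficking peaks did not stand out. Median log2 values over input were 3.52 with V5 and 3.57 with FLAG, against 3.61 for the other peaks in both lists. Over the empty vector they were 3.55 and 3.40, against 3.62 and 3.59. Median −log10 p was lower in each list, at 6.89, 7.70, 4.64 and 6.82 in the same order, against 8.90, 9.89, 6.14 and 8.80, so trafficking peaks were on the weaker side in every list by that measure. Median peak length was 77 nt and 74 nt over input, against 75 and 72, and median GC content 60.9% and 58.5%, against 60.6% and 59.0%. By gene, the average of the highest V5 and FLAG value over input had a median of 3.94 over the 40 trafficking genes and 3.92 over all 1857 genes. ARF3, SEC16A, AP3D1 and COPG2 ranked 47, 64, 125 and 232 among the 1857.

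The GU-loop:5nt-stem model was met about as often as elsewhere. It was found in 38.5% of V5 peaks over input (30.4 to 47.4), against 41.7% of other peaks, and in 42.2% of FLAG peaks (34.7 to 50.1), against 39.6%. Over both lists over input, it was met in 0 of 9 peaks in EXOC (0 to 29.9%), 3 of 4 in STX (75%, 30.1 to 95.4) and 14 of 23 in SEC (60.9%, 40.8 to 77.8), with 16 of 27 in RAB (59.3%, 40.7 to 75.5), 26 of 72 in AP (36.1%, 26.0 to 47.6), 10 of 33 in SNX (30.3%, 17.4 to 47.3) and 9 of 28 in ARF (32.1%, 17.9 to 50.7). Median peak length differed too, from 31.5 nt in ARF to 119 nt in STX, and longer peaks hold more positions at which the model can be met. A match describes letters and predicted pairing of genomic sequence, which near a junction includes intron.

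**Figure D5:**
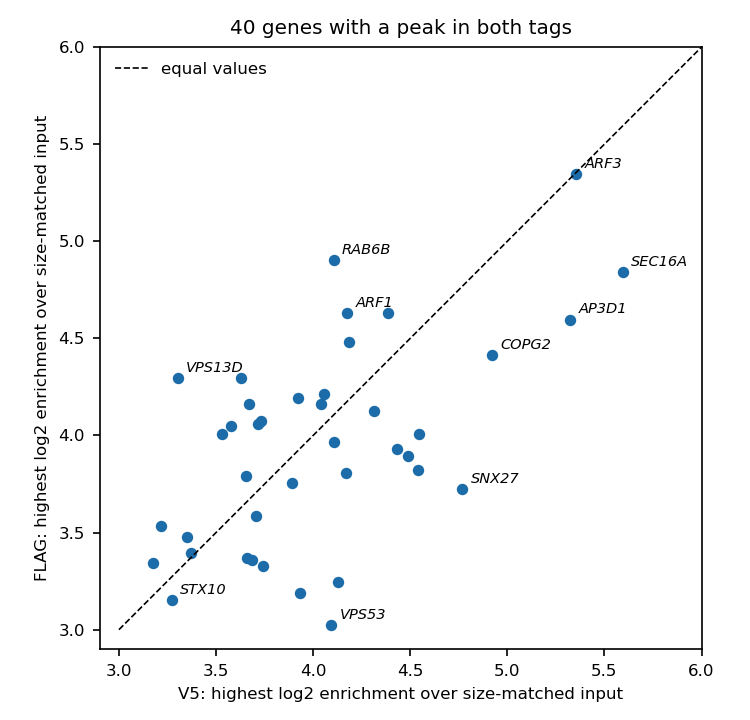
Highest log2 enrichment over size-matched input with FLAG (vertical axis) against V5 (horizontal axis) for the 40 trafficking genes with a peak in both lists. Each point is 1 gene, without replicate error, and the dashed line marks equal values. ARF3 lies on the line, SEC16A, AP3D1, COPG2 and SNX27 are higher with V5, and RAB6B, ARF1 and VPS13D are higher with FLAG.

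V5 and FLAG were compared by gene over input, where no library is shared. The 40 genes in both lists were 78.4% of the 51 V5 genes and 67.8% of the 59 FLAG genes. Over all protein-coding genes, the 1857 in both were 68.3% and 70.4%. Across the 40 genes, Pearson's r between the V5 and FLAG maxima was 0.581 and Spearman's rho 0.447, against 0.505 and 0.455 over the 1857. These are descriptions across genes, which are not replicates, and all values are bounded below by the threshold of the lists. V5 was higher in 21 genes and FLAG in 19. The V5 and FLAG maxima of a gene need not come from the same place, and 31 of the 40 genes had a place bound with both tags. The median absolute difference was 0.354 and the highest 1.07, in VPS53, whose V5 and FLAG peaks lay at different places. As the order of the genes rests on differences of this size, neighbours in the order cannot be separated.

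By place, 70 of 122 V5 peaks over input shared at least 1 nt with a FLAG peak over input (57.4%, 48.5 to 65.8), against 53.5% of other peaks. In the reverse direction 74 of 154 FLAG peaks did (48.1%, 40.3 to 55.9), against 55.6%. Overlap with the empty vector lists was lower. Of the V5 peaks over input, 28 shared at least 1 nt with a peak of the V5 list over the empty vector (23.0%, 16.4 to 31.2), against 36.7% of other peaks, which lies above that interval. Of the FLAG peaks over input, 36 did so with the FLAG list over the empty vector (23.4%, 17.4 to 30.7), against 28.2%. Most trafficking peaks over input therefore had no counterpart over the empty vector IP with the same tag. Since both lists of a tag use the same IP libraries, this overlap is not that of independent experiments.

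Other genes of the pathway were counted from lists set by role. Of 206 such genes, 72 had a peak in any list (35.0%, against 18.1%), and 8 had an interval in the intersection. The clathrin and adaptor list had 12 of 23 genes with a peak, COPII and cargo receptors 14 of 27, tethers 11 of 35, SNAREs and their factors 6 of 25, RAB and ARF regulators 18 of 63, and ESCRT and retromer partners 11 of 33. Thus the clathrin and adaptor list and the COPII and cargo receptor list had larger shares of bound genes than the SNARE list, as a count and without a test. Most bound genes of the COPII and cargo receptor list were not coat subunits. The genes with an interval in the intersection were MCFD2, TMED8, COG2, YKT6, RAB3GAP1, IQSEC1, CHMP1A and CHMP5. YKT6, a SNARE outside the STX and VAMP families, had 5.03 and 5.31 over input and 4.85 and 5.21 over the empty vector, higher than each of the STX values. IQSEC1, an exchange factor for ARF6, had 4.85 and 6.03 over input and 4.70 and 5.22 over the empty vector. The other 6 genes had values from 3.84 to 5.64 over input and from 3.01 to 5.05 over the empty vector.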

How the data were processed

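eCLIP was performed with V5-dSpCas9 and 3xFLAG-dSpCas9 in HEK 293T cells. The submitters' processing notes name UMI-tools 1.0.0, cutadapt 1.14, STAR 2.4.0i and SAMtools 1.6. The authors aligned reads to hg38 with their eCLIP pipeline (0.4.0) and combined the replicates with the Irreproducible Discovery Rate. The peak caller version and the scaling of read counts are not given in the sources used here. The authors deposited, per peak, the log2 of the mean ratio of IP to control reads and the −log10 of a p-value. Library depth is unknown, so enrichments carry no interval.

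Peaks were assigned to exons of GENCODE version 44 (Ensembl 110), and regions were taken at the midpoint on the Ensembl canonical transcript. A peak overlapping exons of several genes counted for each. Lists were intersected within V5, within FLAG, then between them (same strand, at least 50% of the interval named first, shared part retained). Pairing probabilities came from RNAplfold in ViennaRNA 2.7.2 (window 70, u = 1, 50 nt of genomic padding; U under 0.7, each of 5 stem bases over 0.5). Sequences are from the hg38 reference, and only selected ones are printed; some bound sequences are not reported here. Python 3.11.15, pandas 2.3.3 and scipy 1.17.1 were used, and the steps were tested on simulated data.

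Members and gene lists were chosen with earlier results of these data known. Genes named by rule were those with an interval in the intersection, the leading gene of each family by the average of its highest V5 and FLAG value over input, the 3 with most peaks, the 3 leading by that average over the empty vector, and matching genes outside vesicle trafficking. Other genes were named after their values were seen. Alternatives were other thresholds, exon sets, overlaps and motif limits.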

Additional observations from a re-analysis of the deposited data

How the results depend on the processing

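No paired analysis was possible because the lists hold 1 value per peak over both replicates, and for the same reason no replicate could be left out. Of 154 values recomputed under 13 alternatives, 121 stayed within 1.5 times the count or inside the 95% interval of the value reported, and 33 did not, all under a higher threshold. With a log2 of at least 4, the lists kept 29, 38, 6 and 4 peaks on 21, 26, 6 and 4 genes (V5 and FLAG over input, V5 and FLAG over the empty vector). Bound genes fell to 4 for RAB, 7 for VPS, 3 each for COP, SEC and TBC1D, and 0 for ARFGAP and STX. The 3′UTR then held 75.9%, 68.4%, 16.7% and 100% of the peaks in the 4 lists, and coding sequence 20.7% and 28.9% over input and 0% with FLAG over the empty vector. The intersection kept 1 interval in 1 gene, with the motif in 0%. With a −log10 p of at least 5, V5 over the empty vector kept 17 peaks on 11 genes, 58.8% in the 3′UTR and 29.4% in coding sequence. Bound genes were then 3 for SEC, 6 for TBC1D and 1 for EXOC, and the intersection held 5 genes. Fewer peaks enter by construction. The canonical exons, the 50% exon overlap, the exclusion of SEC61G, merged touching peaks, other region and overlap rules and other motif limits moved no value past these bounds. Depth, mRNA level and replicate spread are unknown and limit every comparison above.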
